A study of Homo sapiens with 6 samples.

Results

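The NRF2 antioxidant response was examined through 10 genes in MCF10DCIS.com cells upon WDR5 silencing. The genes were taken by name from the gene count table: NFE2L2, which encodes the transcription factor NRF2, its inhibitor KEAP1, and 8 genes it is known to activate (NQO1, HMOX1, GCLC, GCLM, TXNRD1, SRXN1, TXN and PRDX1). All 10 were among the 26334 genes of the table, and all 10 were among the 16117 genes with enough reads to be tested. MCF10DCIS.com is an established human breast cell line that forms lesions resembling ductal carcinoma in situ in mice. The control group (shLuc, 3 samples) carried a short hairpin RNA against luciferase, a gene these cells lack, and the silenced group (shWDR5, 3 samples) carried a vector directed against WDR5, a core subunit of the histone H3 lysine 4 methyltransferase complexes. In both groups the vector was pRSI, with the hairpin under the U6 promoter and TagRFP and puromycin resistance under UbiC, and the cells of both were selected with puromycin at 3 µg/ml and grown in DMEM/F12 with 5% horse serum. The study pooled WDR5 hairpins in the cells it injected into mice, and whether the sequenced cells carried that pool is not stated. No label says that the lines were cloned. The time between infection and lysis is not given in the sources used here. The polyadenylated RNA of bulk cultures was sequenced, with 48500509, 38218108 and 39327358 gene-assigned reads in shLuc replicates 1 to 3 and 47723477, 57640167 and 46097058 in shWDR5 replicates 1 to 3. Nothing in the labels says that replicates of a group were separate infections, so p-values measure the spread between these samples only.

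NRF2 is a basic leucine zipper factor that pairs with small MAF proteins at antioxidant response elements. In resting cells KEAP1 binds NRF2 and hands it to a CUL3 ubiquitin ligase, so the protein is short-lived. Electrophiles and oxidants modify cysteines of KEAP1, NRF2 then accumulates, and genes for glutathione synthesis, the thioredoxin cycle, quinone reduction and heme breakdown are transcribed. Because that control acts mainly on the protein, mRNA of NFE2L2 and KEAP1 says little about NRF2 activity, and NRF2 protein was not measured in these data.

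WDR5 mRNA was lowered in every shWDR5 sample. It stood at 52.6, 48.5 and 51.3 CPM (read counts scaled to a common library total, with TMM factors) in shLuc replicates 1 to 3 and at 23.4, 24.4 and 20.8 CPM in shWDR5 replicates 1 to 3. It fell by 55.0% (log2 fold change -1.15 ± 0.07 SE, edgeR adjusted p = 8.67e-07), and the groups did not overlap. Basal epithelial markers were present in all samples, with all 7 genes above 1 CPM, while the luminal hormone receptor PGR was at or near 0 and ESR1 stood between 2.94 and 4.08 CPM. The summed CPM of the basal list was 8219, 8260 and 7617 in shLuc and 12691, 11543 and 12122 in shWDR5 replicates 1 to 3, so the sum moved with the silencing. KRT5, KRT14, KRT17, TP63 and LAMB3 rose, EGFR fell (log2 fold change -0.27 ± 0.06 SE, edgeR adjusted p = 0.0017) and ITGA6 was not called (0.05 ± 0.07, adjusted p = 0.59). The part of these markers in the results on the antioxidant genes was not tested. The summed CPM of the luminal list ranged from 4136 to 4326 in shLuc and from 3714 to 3992 in shWDR5, with KRT8 the most abundant of 8 genes. Neither KRT8 nor KRT18, which made up most of that sum, was called, while CDH1 (E-cadherin) fell by 51.1%, EPCAM and GATA3 fell by 20.7% and 23.9%, and KRT19 rose 3.57-fold from 1.31 CPM (edgeR adjusted p = 2.64e-07, 0.0032, 0.0014 and 8.24e-07). Their part in the results was not tested either. Markers of other cell types were low: the immune list summed to between 3.198 and 5.08 CPM with LYZ leading and CD3E at 0, the endothelial list to between 5.31 and 8.45 CPM with PECAM1 leading, and the fibroblast list to between 14.9 and 23.7 CPM, nearly all of it COL1A1, with LUM at 0.

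Upon silencing, the 10 genes did not move as 1 block. HMOX1 rose 2.07-fold, PRDX1, SRXN1, NFE2L2 and NQO1 rose by 13.6% to 30.1%, GCLM fell by 30.1% and TXNRD1 fell by 12.5%. KEAP1, GCLC and TXN did not pass the test. In counts, 5 of 10 were higher and 2 of 10 lower at an edgeR adjusted p under 0.05, beside 26.6% of all tested genes called higher and 29.9% called lower. Only HMOX1, 1 of 10, also passed the study's fold limit (an absolute log2 fold change of at least 0.6), a limit that 22.9% of all tested genes passed in either direction. The median log2 fold change was 0.16 over the 10 genes and -0.01 over all genes tested (0.10 and -0.07 when libraries were scaled by total counts only), and the median absolute change was 0.20 against 0.31. Samples of the groups did not overlap for 6 genes that were higher and 2 that were lower, where 29.9% and 32.4% of all tested genes did the same. With most of the tested genes called or not overlapping, a share of calls by itself does not set these 10 apart. In bulk RNA a change in the level per cell and a change in the share of cells that express a gene cannot be told apart.

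**Figure D1:**
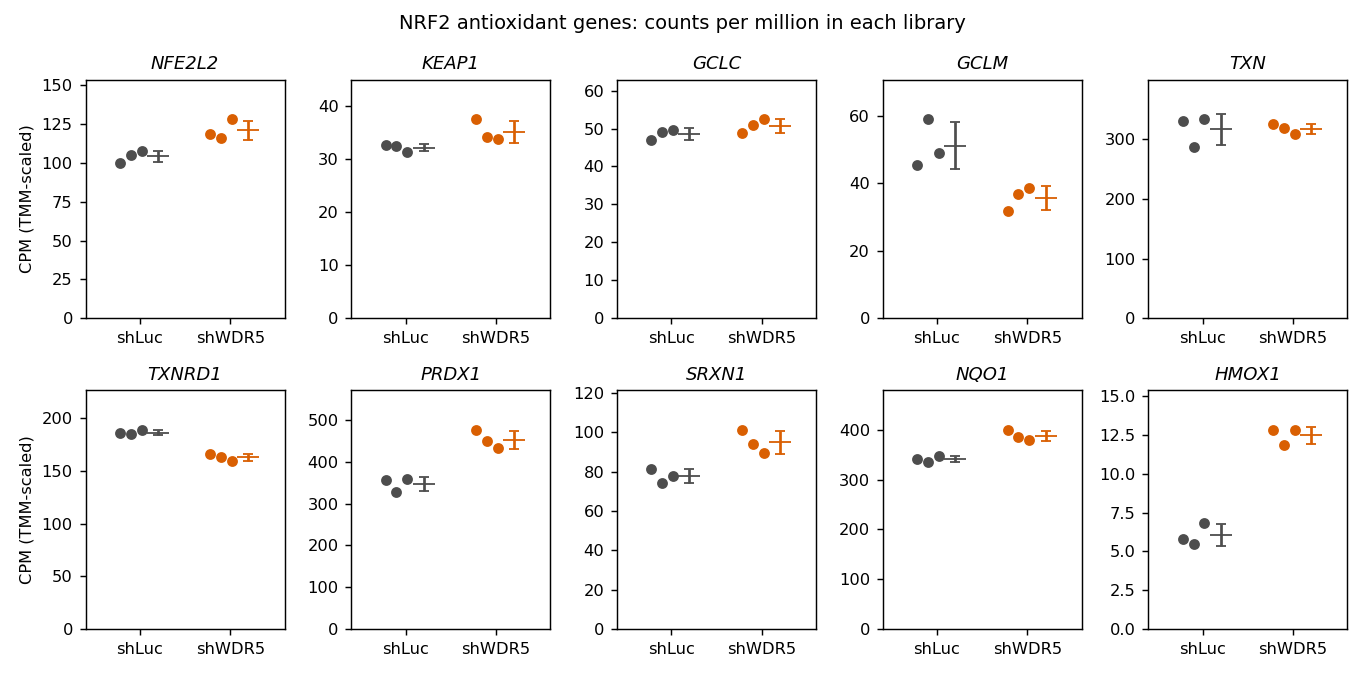
CPM (TMM-scaled, vertical axes starting at 0, one scale per gene) of the 10 genes in each of the 3 shLuc (grey) and 3 shWDR5 (orange) libraries. Points are libraries, and the horizontal mark with bars is the mean ± SD of the group. HMOX1 lies between 5.47 and 6.84 in shLuc and between 11.9 and 12.8 in shWDR5, and the points overlap between groups for GCLC and TXN.

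The regulators were considered first. NFE2L2 (hg19 chr2:178095031-178129859, minus strand) was at 100.02, 105.0 and 107.3 CPM in shLuc replicates 1 to 3 and at 118.8, 116.0 and 127.9 CPM in shWDR5 replicates 1 to 3. Every shWDR5 sample was above every shLuc sample, but the gap between the groups was no wider than the spread within shWDR5. The rise was 16.2% (log2 fold change 0.22 ± 0.06 SE, edgeR adjusted p = 0.0092). KEAP1 (hg19 chr19:10596796-10614054, minus strand), the adaptor that holds NRF2 down, was at 32.6, 32.4 and 31.4 CPM in shLuc and at 37.4, 34.1 and 33.7 CPM in shWDR5 replicates 1 to 3. The shWDR5 samples were again all above the shLuc samples, with shWDR5 replicate 1 standing apart. The log2 fold change of 0.13 ± 0.06 (SE) did not pass the test (edgeR adjusted p = 0.12). It did pass when the replicate number was added to the fit as a block (edgeR adjusted p = 0.042). The ratio of NFE2L2 to KEAP1, taken from RPKM values (CPM per kilobase of exon), was 2.62 ± 0.14 in shLuc and 2.80 ± 0.25 in shWDR5 (SD, n = 3), with overlapping samples (exact permutation test, two-sided p = 0.50).

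The subunits of glutamate-cysteine ligase, the rate-limiting enzyme of glutathione synthesis, diverged. GCLC (hg19 chr6:53362140-53409927, minus strand), the catalytic subunit, was at 46.9, 49.2 and 49.7 CPM in shLuc and at 48.7, 51.0 and 52.4 CPM in shWDR5 replicates 1 to 3. The groups overlapped, and the log2 fold change was 0.06 ± 0.06 (SE, edgeR adjusted p = 0.40). GCLM (hg19 chr1:94350756-94375154, minus strand), the modifier subunit that makes the enzyme more efficient, was at 45.5, 59.0 and 49.0 CPM in shLuc and at 31.8, 36.7 and 38.7 CPM in shWDR5 replicates 1 to 3. All shWDR5 samples were below all shLuc samples, although GCLM had the widest spread of the 10 genes relative to its mean in either group. It fell by 0.52 on the log2 scale (SE 0.10, edgeR adjusted p = 0.0016). Within each library the RPKM of GCLM was 0.733, 0.905 and 0.744 times that of GCLC in shLuc and 0.493, 0.543 and 0.558 times in shWDR5 replicates 1 to 3. This ratio does not depend on how libraries are scaled to each other, and its groups did not overlap (exact permutation test, two-sided p = 0.10, the smallest that 3 against 3 samples can give).

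The promoter of GCLM is shown because this gene fell while its partner GCLC gave no call. RefSeq's 250 bases before its start (GRCh38.p14, chr1:93909431-93909680, minus strand, a build other than that of the counts) read, 5′ to 3′ on the strand of the gene, with a match to the core of the antioxidant response element in capitals:
GCLM upstream: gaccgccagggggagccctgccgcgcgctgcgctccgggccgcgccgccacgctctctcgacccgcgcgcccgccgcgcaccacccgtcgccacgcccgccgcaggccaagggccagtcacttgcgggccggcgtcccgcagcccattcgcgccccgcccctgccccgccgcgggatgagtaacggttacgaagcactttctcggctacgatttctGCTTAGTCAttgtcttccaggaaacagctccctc

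The core was searched as TGACNNNGC on both strands, in RefSeq windows of 250 bases before to 50 after each start. Windows were found for 8 of the 10 genes (11 windows, since KEAP1, NFE2L2 and TXNRD1 had 2 each), and PRDX1 and HMOX1 were not matched. The core was found in 4 of the 11 windows, which belonged to GCLM, KEAP1 and TXNRD1, and in 13.3% of all 35116 windows. The AP-1 letters TGANTCA, which can share the TGAC of the core, were found in 0 of the 11 and in 7.71% of all windows. The matches before the start are set side by side with 10 bases on either side, the core or its reverse complement in capitals, and all coordinates in GRCh38.p14:
GCLM (chr1:93909446-93909474, opposite strand): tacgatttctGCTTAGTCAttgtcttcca
KEAP1 (chr19:10502784-10502812, opposite strand): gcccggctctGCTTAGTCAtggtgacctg
KEAP1 (chr19:10502807-10502835, same strand): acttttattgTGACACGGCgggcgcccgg
TXNRD1 (chr12:104215670-104215698, same strand): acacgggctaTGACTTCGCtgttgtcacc
TXNRD1 (chr12:104286920-104286948, opposite strand): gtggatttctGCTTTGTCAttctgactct

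A further match at TXNRD1 crosses the start and is not shown. GCLM and KEAP1 shared the same 9 letters in the same orientation, and of these 3 genes GCLM and TXNRD1 fell while KEAP1 gave no call. These are matches of letters and not sites of binding. A window without them says nothing about elements farther from the start.

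Of the 4 genes of the thioredoxin system among the 10, PRDX1 and SRXN1 rose, TXNRD1 fell and TXN was not called. TXN (hg19 chr9:113006092-113018920, minus strand), thioredoxin itself, was at 329.9, 286.2 and 333.0 CPM in shLuc and at 325.2, 319.1 and 308.1 CPM in shWDR5 replicates 1 to 3. The shWDR5 values lay inside the shLuc range, and the log2 fold change was 0.00 ± 0.07 (SE, edgeR adjusted p = 0.96). TXNRD1 (hg19 chr12:104609557-104744085, plus strand), the selenoprotein that returns electrons from NADPH to thioredoxin, was at 185.9, 185.0 and 188.8 CPM in shLuc and at 166.5, 163.4 and 159.9 CPM in shWDR5 replicates 1 to 3. The samples of each group lay close together and the groups did not overlap. It fell by 0.19 on the log2 scale (SE 0.05) and passed the test (edgeR adjusted p = 0.0063).

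PRDX1 (hg19 chr1:45976707-45988562, minus strand), a peroxiredoxin that reduces hydrogen peroxide with electrons from thioredoxin, was at 355.5, 328.7 and 358.6 CPM in shLuc and at 475.6, 448.6 and 432.9 CPM in shWDR5 replicates 1 to 3. The groups did not overlap, and it rose by 30.1% (log2 fold change 0.38 ± 0.06 SE, edgeR adjusted p = 2.68e-04). Like TXN, PRDX1 has processed copies elsewhere in the genome, and how reads shared with them were counted is not given. Of its 1348 exonic bases, 33 overlap exons of MMACHC on the opposite strand, and whether the counting used strand is not stated. SRXN1 (hg19 chr20:627268-634014, minus strand), sulfiredoxin, which repairs overoxidised peroxiredoxins, was at 81.2, 74.1 and 77.8 CPM in shLuc and at 101.1, 94.1 and 89.4 CPM in shWDR5 replicates 1 to 3. It rose 1.22-fold (log2 fold change 0.29 ± 0.06 SE, edgeR adjusted p = 0.0030), again with no overlap. The RPKM of SRXN1 relative to that of PRDX1 was 0.112 ± 0.003 in shLuc and 0.105 ± 0.002 in shWDR5 (SD, n = 3), and that of TXNRD1 relative to TXN was 0.112 ± 0.009 and 0.097 ± 0.001. Neither pair of groups overlapped (exact permutation test, two-sided p = 0.10 for each, the smallest possible).

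NQO1 and HMOX1, the detoxifying enzymes, both rose. NQO1 (hg19 chr16:69743304-69760571, minus strand), which reduces quinones by 2 electrons and so avoids reactive semiquinones, was at 342.3, 335.6 and 347.3 CPM in shLuc and at 399.6, 385.4 and 379.4 CPM in shWDR5 replicates 1 to 3. The groups did not overlap, and the rise was 13.6% (log2 fold change 0.18 ± 0.05 SE, edgeR adjusted p = 0.0082). HMOX1 (hg19 chr22:35777060-35790207, plus strand), the inducible heme oxygenase that opens heme to biliverdin, iron and carbon monoxide, was at 5.81, 5.47 and 6.84 CPM in shLuc and at 12.8, 11.9 and 12.8 CPM in shWDR5 replicates 1 to 3. These levels rest on 212 to 287 reads per shLuc sample and 581 to 675 per shWDR5 sample. Its lowest shWDR5 sample was well above its highest shLuc sample, and its level rose 2.07-fold (log2 fold change 1.05 ± 0.09 SE, edgeR adjusted p = 7.21e-06). HMOX2, the constitutive isozyme, also rose (log2 fold change 0.40 ± 0.06 SE, edgeR adjusted p = 3.80e-04), yet by less: the RPKM ratio of HMOX1 to HMOX2 was 0.233, 0.231 and 0.286 in shLuc and 0.376, 0.374 and 0.428 in shWDR5 replicates 1 to 3, without overlap (exact permutation test, two-sided p = 0.10, the smallest possible).

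**Figure D2:**
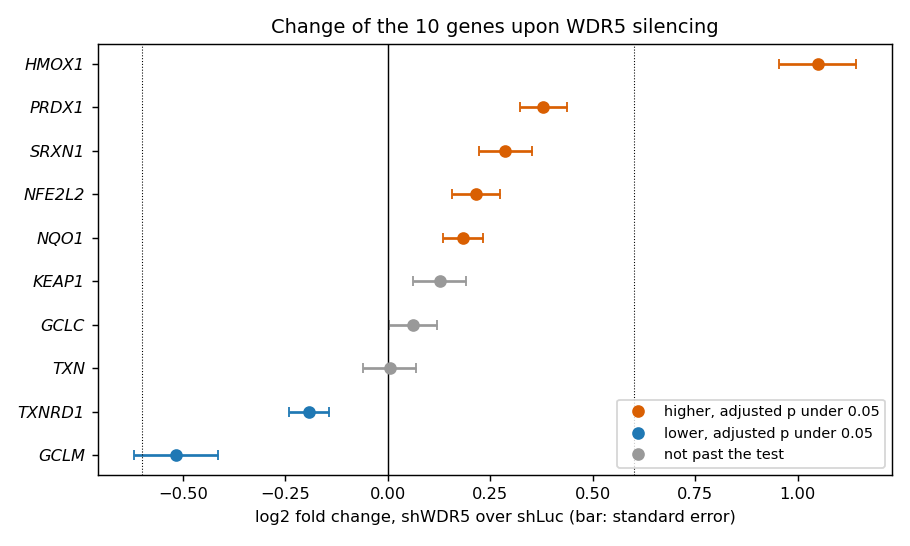
Log2 fold change of shWDR5 over shLuc (horizontal axis, points) with its standard error (bars) for the 10 genes, ordered by size. Orange marks genes higher and blue genes lower at an edgeR adjusted p under 0.05, grey those that did not pass, and the dotted lines stand at -0.6 and 0.6. HMOX1 at 1.05 is the only point beyond a dotted line, and GCLM at -0.52 lies farthest to the left.

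Per length, the levels of the 10 genes spanned a wide range. In shLuc the RPKM fell from TXN (364 ± 30) to PRDX1 (258 ± 12), NQO1 (130 ± 2), TXNRD1 (40.5 ± 0.4), NFE2L2 (31.2 ± 1.1), SRXN1 (28.9 ± 1.3), GCLC (12.7 ± 0.4), KEAP1 (11.9 ± 0.2), GCLM (10.1 ± 1.4) and HMOX1 (3.80 ± 0.45; SD, n = 3 for each). In shWDR5 the order changed only between neighbours. TXNRD1 (35.4 ± 0.7), NFE2L2 (36.2 ± 1.9) and SRXN1 (35.3 ± 2.2) had overlapping ranges of mean ± SD, as did GCLC (13.3 ± 0.5) and KEAP1 (13.0 ± 0.8), and HMOX1 (7.86 ± 0.34) and GCLM (7.08 ± 0.71), while PRDX1 (336 ± 16) stayed below TXN (366 ± 10).

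A further 77 genes of the pathway were followed in 6 lists, of which 76 could be tested (the iron exporter SLC40A1 had 0 reads). At an edgeR adjusted p under 0.05, 35 were higher, 17 lower and 24 not called, beside 26.6% of all tested genes called higher and 29.9% called lower. Of the 76, 15 of the higher and 7 of the lower passed the fold limit, which 22.9% of all tested genes passed in either direction. The median log2 fold change was 0.13, beside -0.01 over all genes tested, and the median absolute change 0.36, beside 0.31. The genes named are the 20 largest changes past the fold limit and MAFF, MAFG, MAFK, BACH1 and CUL3, which were set by name. The others were picked as examples after their values were seen.

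Among the 14 partners and degradation factors of NRF2, 5 rose, 4 fell and 5 were not called, beside 26.6% and 29.9% of all tested genes, with a median log2 fold change of 0.10. The small MAF genes, whose products pair with NRF2 on DNA, went different ways. MAFF fell from 66.6 ± 3.3 to 45.3 ± 2.9 CPM (log2 fold change -0.56 ± 0.07 SE, edgeR adjusted p = 5.49e-05), MAFG rose from 58.1 ± 3.7 to 79.3 ± 5.2 CPM (0.45 ± 0.07, adjusted p = 3.10e-04), and MAFK stood at 38.3 ± 2.3 and 41.5 ± 1.1 CPM (adjusted p = 0.16; SD, n = 3 for each). Of the exonic bases of MAFK, 809 of 3350 overlap TMEM184A (44.1 CPM) on the opposite strand, and whether the counting used strand is not stated. The RPKM ratio of MAFF to MAFG was 2.37, 2.31 and 2.46 in shLuc and 1.08, 1.35 and 1.15 in shWDR5 replicates 1 to 3, without overlap (exact permutation test, two-sided p = 0.10, the smallest possible). BACH1, a repressor that competes with NRF2 at HMOX1, was at 52.5 ± 5.6 and 55.9 ± 6.3 CPM and gave no call (log2 fold change 0.09 ± 0.10 SE, adjusted p = 0.45), while its relative BACH2, barely expressed, fell from 2.98 ± 0.54 to 1.19 ± 0.25 CPM (adjusted p = 1.51e-04).

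CUL3, the scaffold of the ligase that KEAP1 recruits, was at 82.1, 86.3 and 91.0 CPM in shLuc and at 68.8, 81.7 and 75.8 CPM in shWDR5 replicates 1 to 3. The groups nearly met, and the fall of 0.20 on the log2 scale passed narrowly (SE 0.07, edgeR adjusted p = 0.040). That call was lost under 7 of 13 other settings, where the adjusted p reached 0.16. SQSTM1, the autophagy receptor p62, which can take KEAP1 away from NRF2, rose from 381 ± 17 to 625 ± 52 CPM (SD, n = 3; log2 fold change 0.71 ± 0.07 SE, edgeR adjusted p = 1.07e-05), and of its 3336 exonic bases 620 overlap C5orf45 (6.74 CPM) and 105 overlap MGAT4B (263 CPM), both on the opposite strand. NFE2L1, which encodes the NRF2 relative NRF1, rose 1.50-fold, from 394 ± 4 to 591 ± 24 CPM (adjusted p = 5.96e-06).

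In the list of glutathione use and cystine uptake 9 of 17 genes rose and 3 fell, beside 26.6% and 29.9% of all tested genes, with a median log2 fold change of 0.35. SLC7A11, the cystine transporter that feeds glutathione synthesis, was at 40.6, 57.7 and 49.3 CPM in shLuc and at 74.5, 88.1 and 101.7 CPM in shWDR5 replicates 1 to 3. It rose 1.79-fold without overlap (log2 fold change 0.84 ± 0.13 SE, edgeR adjusted p = 3.42e-04). GSR, which regenerates reduced glutathione, was at 40.2, 41.6 and 44.7 CPM in shLuc and at 23.0, 22.4 and 24.3 CPM in shWDR5, and fell by 44.9% (log2 fold change -0.86 ± 0.07 SE, adjusted p = 2.97e-06). CHAC1, a glutathione-degrading enzyme also known as a target of ATF4, rose 5.31-fold, from 2.62 ± 0.18 to 13.9 ± 1.1 CPM (adjusted p = 9.60e-08), and GGT1, a gamma-glutamyltransferase, rose from 0.597 ± 0.124 to 1.49 ± 0.03 CPM (adjusted p = 1.27e-04). GGT1 has near-identical relatives, so its reads are uncertain. Of the glutathione peroxidases in the list, GPX1 (0.53 ± 0.06, adjusted p = 4.28e-05) and GPX2 (0.59 ± 0.08, adjusted p = 1.61e-04) rose, and GPX4, which protects membrane lipids, fell (-0.42 ± 0.06, adjusted p = 2.13e-04). Of the export pumps in the list, ABCC3 rose 1.59-fold and ABCC1 1.29-fold (adjusted p = 6.77e-06 and 2.11e-04), and ABCC2, at a mean of 5.88 CPM in shLuc, fell by 34.3% (adjusted p = 1.67e-04).

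In the list of peroxide and superoxide removal, 9 of 14 genes rose and 0 fell, beside 26.6% and 29.9% of all tested genes. These calls are at an edgeR adjusted p under 0.05, and the list had a median log2 fold change of 0.24. The list is not made up of removal enzymes alone, and TXNIP and the 3 sestrins were among the genes that rose. SOD2, the mitochondrial superoxide dismutase, was at 71.3, 76.1 and 85.8 CPM in shLuc and at 207.6, 220.1 and 214.1 CPM in shWDR5 replicates 1 to 3, a 2.75-fold rise (log2 fold change 1.46 ± 0.07 SE, adjusted p = 2.06e-07). The 3 sestrins, stress-induced regulators of mTORC1 that are also known as targets of p53 (SESN1, SESN2), ATF4 (SESN2) and FOXO factors (SESN3), rose about alike: SESN1 2.08-fold (adjusted p = 1.13e-06), SESN2 2.11-fold (adjusted p = 6.68e-07) and SESN3 2.03-fold (adjusted p = 1.07e-04). Smaller rises were seen for PRDX2 (0.31 ± 0.06 on the log2 scale, adjusted p = 0.0015) and for TXNIP, the thioredoxin inhibitor (0.26 ± 0.06, adjusted p = 0.0024). The other peroxiredoxins of the list, PRDX3, PRDX4, PRDX5 and PRDX6, were not called (log2 fold changes from -0.14 to 0.12). TXNRD2, the mitochondrial thioredoxin reductase, rose (0.35 ± 0.07, adjusted p = 0.0018).

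**Figure D3:**
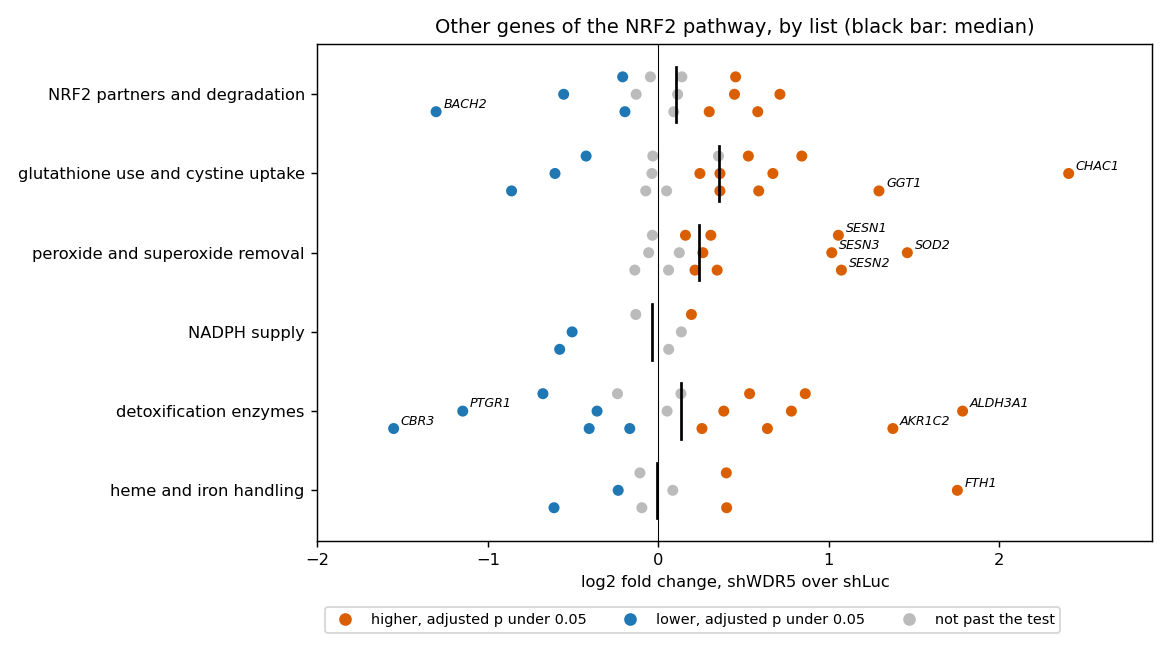
Log2 fold change of shWDR5 over shLuc (horizontal axis) of the 76 tested genes of 6 pathway lists (rows), 1 point per gene, spread vertically only for legibility. Orange and blue mark genes higher and lower at an edgeR adjusted p under 0.05, grey those that did not pass, black bars the list medians, and genes beyond 1 in either direction are named. No gene of the peroxide and superoxide list is blue, and the detoxification list reaches from -1.55 (CBR3) to 1.79 (ALDH3A1).

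The enzymes that supply NADPH, which both thioredoxin reductase and glutathione reductase consume, were counted in a list of 6: 1 rose and 2 fell, beside 26.6% and 29.9% of all tested genes, with a median log2 fold change of -0.04. TKT and TALDO1, enzymes of the non-oxidative pentose phosphate route, fell by 33.0% and 29.6% (edgeR adjusted p = 4.79e-06 and 2.48e-05). The malic enzyme ME1 rose by 14.4% (adjusted p = 0.015), a call lost under 2 of 13 other settings.

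Of 17 detoxification enzymes 8 rose, 6 fell and 3 were not called, beside 26.6% higher and 29.9% lower of all tested genes, and the median log2 fold change was 0.13. The fold limit was passed by 5 of the higher and 3 of the lower. ALDH3A1, an aldehyde dehydrogenase, rose 3.45-fold from 0.940 ± 0.083 to 3.25 ± 0.46 CPM (edgeR adjusted p = 5.96e-06). The aldo-keto reductase AKR1B1 rose 1.72-fold (adjusted p = 1.08e-05) and AKR1C2 2.60-fold, from 75.2 ± 3.8 to 195 ± 5 CPM (adjusted p = 1.08e-07). AKR1C2 is nearly identical to AKR1C1, which rose 1.45-fold (adjusted p = 1.26e-04), and the ubiquitin ligase gene TRIM16 (1.56-fold, adjusted p = 3.61e-05) to TRIM16L (1.82-fold, adjusted p = 3.67e-05), so reads within each pair may have been assigned to the other. On the other side, the carbonyl reductase CBR3 was at 6.35, 5.78 and 5.53 CPM in shLuc and at 2.05, 2.16 and 1.79 CPM in shWDR5, and fell by 65.9% (log2 fold change -1.55 ± 0.11 SE, adjusted p = 1.65e-06). PTGR1, which reduces reactive alkenals, fell by 54.9% (adjusted p = 5.02e-06), and UGDH, which makes UDP-glucuronate, fell by 37.5% (adjusted p = 4.27e-05).

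In heme and iron handling 3 of 8 tested genes rose and 2 fell, beside 26.6% and 29.9% of all tested genes, with a median log2 fold change of -0.01. FTH1, the ferritin heavy chain that stores iron, was at 575, 492 and 548 CPM in shLuc and at 1987, 1643 and 1821 CPM in shWDR5 replicates 1 to 3. It rose 3.38-fold without overlap (log2 fold change 1.76 ± 0.08 SE, edgeR adjusted p = 1.59e-07), while FTL, the light chain, rose 1.32-fold, from 129 ± 8 to 170 ± 17 CPM (adjusted p = 0.0014). Both ferritin genes have many processed copies in the genome, and how reads shared with them were counted is not given in the sources used here. Of the biliverdin reductases, which act after heme oxygenase, BLVRA fell by 15.1% and BLVRB fell by 34.6% (adjusted p = 0.0082 and 1.09e-04).

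**Figure D4:**
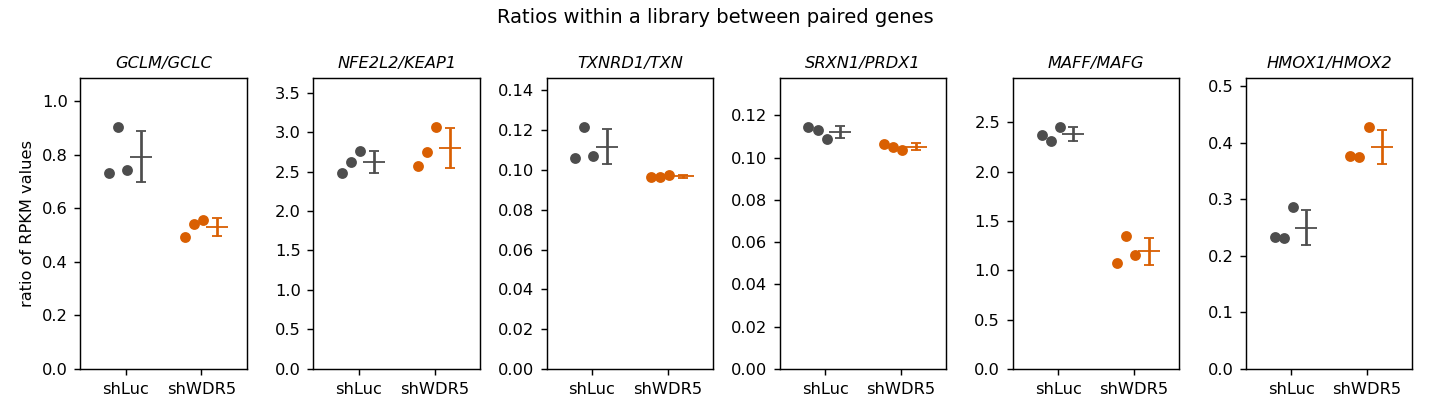
Ratios of RPKM values within each library (vertical axes starting at 0, no unit, one scale per pair) for 6 pairs of genes in the 3 shLuc (grey) and 3 shWDR5 (orange) libraries. Points are libraries, and the horizontal mark with bars is the mean ± SD of the group. The groups are apart for GCLM/GCLC, TXNRD1/TXN, SRXN1/PRDX1, MAFF/MAFG and HMOX1/HMOX2, and overlap for NFE2L2/KEAP1.

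The 6 gene pairs were chosen after the values had been seen. Each of the 5 without overlap had an exact permutation p of 0.10, or 0.12 adjusted over the 6, so a p under 0.05 could not be reached. The genes whose CPM on the log2 scale followed NFE2L2 most closely over the 6 samples were FCHSD2, EPC2, SUPT20H, STON2 and TSPYL1 (Pearson r from 0.991 to 0.996, among 9458 genes with a mean of at least 10 CPM). A Pearson r of at least 0.95 was reached by 205 of those genes, and none of the 5 belonged to the 10 genes or the pathway lists. These correlations over 6 samples take in both the difference between the 2 groups and the spread of the shared libraries. The part of each was not tested.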

How the data were processed

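Total RNA of 3 shLuc and 3 shWDR5 MCF10DCIS.com samples was converted to poly-A TruSeq libraries (Illumina HiSeq). The authors deposited raw read counts per gene over hg19 exons, and the submitters' processing notes name TopHat2 2.1.0, featureCounts and edgeR 3.2.2. The strand setting and the treatment of reads with several matches are not given in the sources used here, and both can change the counts of overlapping genes or genes with near-identical copies. A second table with the authors' own comparison (log fold change, log CPM, F, p and FDR) was not used.

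Counts were fitted with edgeR 4.0.16 in R 4.3.3 (filterByExpr, TMM, glmQLFit, glmQLFTest, group as the only term, Benjamini-Hochberg over all 16117 genes tested). SE is the absolute log2 fold change divided by the root of F. CPM and RPKM used TMM-scaled totals. The steps were tested on simulated data. Alternatives used DESeq2 1.42.0, limma 3.58.1, other scalings, no filter and the omission of each sample. Replicates differed beyond sampling noise (chi-square per degree of freedom from 7.11 to 18.2), so all 6 samples were kept. The 10 genes and the lists were chosen with earlier results of these data known. The rule for named genes took the 10, WDR5, the 20 largest pathway changes past the fold limit, 9 pathway genes fixed by name (3 of them also among the 20) and the 5 nearest to NFE2L2. The other pathway genes named were picked as examples after their values were seen, and the cell type markers come from fixed lists. The values of 1 gene fixed by name are not reported here. A mitochondrial mRNA list was not analysed here, since its 13 genes have no row.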

Additional observations from a re-analysis of the deposited data

How the results depend on the processing

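The log2 fold changes of WDR5 and of the 10 genes were recomputed under 13 other settings (DESeq2 size factors, total counts, upper quartile factors, no filter, the DESeq2 Wald test, limma-voom, the replicate block, and the omission of each of the 6 samples). All 7 called genes kept their direction and stayed past the threshold, with HMOX1 from 0.98 to 1.14, GCLM from -0.58 to -0.41 and NFE2L2 from 0.16 to 0.25 (adjusted p at most 0.047). GCLC and TXN were never called, and TXN, near 0, changed sign (from -0.07 to 0.05). Under the study's fold and RPKM limits the counts fell to 2962 genes in all, 1 of the 10 genes higher and 0 lower, and 15 pathway genes higher and 6 lower, since those limits are stricter by construction. Total counts alone moved the median of all genes to -0.07, the median of the 10 genes from 0.16 to 0.10, and the share of called genes that were higher from 47.1% to 40.3%.

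Samples with the same replicate number correlated in their deviations from the group means by 0.56, 0.07 and 0.20 for numbers 1 to 3. Taken from each shLuc sample to the shWDR5 samples of another number, the highest correlation was -0.16, 0.36 and 0.12. By that measure only the shLuc sample of number 2 correlated better with another number. The same was not computed from the shWDR5 samples. These values do not settle whether the numbers pair the samples. The main fit left the number out, and the replicate block was among the 13 other settings. With the replicate block 10412 genes were called in place of 9112, and KEAP1 passed (log2 fold change 0.13, edgeR adjusted p = 0.042), the only one of the 10 genes to change its call under any of the 13 settings. Among the pathway and marker genes given with their test in the report, the calls that changed were CUL3 (lost in 7 settings), ME1 (lost in 2), PRDX5 (gained in 3), KRT18 (gained in 2) and MAFK (gained in 1). In the main fit the log2 fold changes of KEAP1 and GCLC were 0.13 ± 0.06 and 0.06 ± 0.06 (SE). The changes set in the simulated data were all larger than these. Whether 3 samples a group can detect changes this small was not tested.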
